A study of Homo sapiens with 3 samples.

Results

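Ribosome occupancy and stop codon readthrough were described for a set of sterol genes in HEK293T cells with and without the aminoglycoside G418. The set was chosen by gene name and held 8 genes, HMGCS1, SQLE, FDFT1, FDPS, IDI1, INSIG1, LSS and DHCR7. Of these, 5 (FDPS, FDFT1, LSS, DHCR7 and INSIG1) were listed in all 3 libraries, among 8812 transcripts listed in all of them. HMGCS1, SQLE and IDI1 were in none of the tables and were not analysed here. The set is one of synthesis enzymes and a regulator, since none of the 8 genes encodes a receptor or carrier for sterol uptake.

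HEK293T cells derive from human embryonic kidney and express the large T antigen of SV40. Ribosome profiling counts the mRNA fragments that ribosomes shield from nuclease (ribosome-protected fragments, RPFs), and RPFs on a coding sequence (CDS) reflect the amount of mRNA and its translation together, which these data do not separate. Untreated cells gave 2 libraries, Untreated A and Untreated B, and cells treated with 500 µg/mL G418 for 24 hours gave 1 library, G418 A. In all 3 libraries cycloheximide was in the lysis buffer, and the study's methods state that it was not added to cells before lysis. G418 acts on the decoding center of the ribosome and makes it less accurate, so the comparisons ask how many ribosomes were on each sterol gene with the drug and how many passed its stop codon. With 1 G418 library that group has no spread of its own, so no test between conditions was made, and the intervals given below are 95% intervals of counting error alone.

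Cholesterol is built from acetyl-CoA through mevalonate, isoprenoid diphosphates, squalene and lanosterol, mostly by enzymes at the endoplasmic reticulum. When sterols run low in that membrane, the transcription factor SREBP-2 is escorted by SCAP to the Golgi and cleaved there, and it then raises transcription of most genes of the pathway. INSIG1 holds SCAP and SREBP in the endoplasmic reticulum when sterols are plentiful, and its own gene is a target of SREBP.

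The 5 listed genes end in 4 different stop signals, a stop signal being the stop codon and the base that follows it. FDPS ends in UGAC, FDFT1 in UGAU, LSS in UGAG, and both DHCR7 and INSIG1 in UAAG. The sequences around the stop codon are shown for genes whose readthrough is compared below, as GENCODE release 44 transcripts on hg38 give them, with 15 bases before the stop codon and 12 after it. Capitals mark the stop signal, written as DNA.
FDPS: tacaagcggagaaagTGACctagagattgc
LSS: cttgctggccaccccTGAGaacatgcctac
DHCR7: ctgcctggaatcttcTAAGggcacgcccta
INSIG1: gattatcttttttctTAAGtaatctattta
The FDPS stop codon is at chr1:155320607-155320609 on the plus strand, in the last of 11 exons of ENST00000368356. The LSS stop codon is at chr21:46191104-46191106 on the minus strand, in exon 22 of the 23 exons of ENST00000356396. The DHCR7 stop codon is at chr11:71435375-71435377 on the minus strand, in the last of 9 exons of ENST00000407721. The INSIG1 stop codon is at chr7:155308356-155308358 on the plus strand, in the last of 6 exons of ENST00000344756. DHCR7 and INSIG1 have the same stop signal, but the bases printed after it are 72.7% G or C in DHCR7 and 9.1% in INSIG1. INSIG1 was counted on a transcript with a CDS of 178 codons, while the longest annotated INSIG1 CDS has 277 codons. FDPS has 8 annotated pseudogenes, and since a read that matched several positions was kept at a single position, the FDPS counts are uncertain.

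Untreated A held 5857230 reads on transcripts, Untreated B 9477972 and G418 A 7216039. Changes were read against the 5684 transcripts whose mean of CDS reads over the libraries reached the minimum given with the processing, and all 5 sterol genes were among them. Of 6 genes known to be expressed in HEK293 lines, 5 were listed in Untreated A and in G418 A and 6 in Untreated B, PAX2 being the gene listed in Untreated B alone. Their summed CDS level was 3979 RPM (reads scaled to a common library total) in Untreated A, 4203 RPM in Untreated B and 3122 RPM in G418 A, lowest in G418 A as for 4 of the 5 sterol genes, and any part of this in the sterol values was not tested. No hepatocyte or adrenal cortex marker was listed in any library, of 4 and 3 looked for. The other marker lists held COL1A1 of fibroblasts, between 34.8 and 46.7 RPM, and CD74 of leukocytes, at most 1.16 RPM and not listed in G418 A.

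CDS density was lower in G418 A than in both untreated libraries for 4 of the 5 sterol genes (FDPS, FDFT1, DHCR7 and INSIG1), while 27.9% of all 5684 transcripts were below both. None of the 5 was lower by a log2 change of 0.5 or more over both untreated libraries, a size that 1.23% of transcripts reached. None was higher by as much either, against 6.32% of transcripts, and none of the 5 lay above both untreated libraries, as 46.3% of transcripts did. Over Untreated A the median log2 change of the 5 genes was -0.17 and over Untreated B -0.48, and over all transcripts it was 0.09 and 0.06. The genes also differed between the untreated libraries. All 5 were higher in Untreated B than in Untreated A, as were 55.1% of transcripts, with a median log2 difference of 0.27 for the 5 genes and 0.03 for all transcripts.

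FDPS makes farnesyl diphosphate, the last isoprenoid shared by the sterol, prenylation and dolichol branches. Its CDS held 244 RPM in Untreated A (1428 reads), 274 RPM in Untreated B (2596 reads) and 184 RPM in G418 A (1327 reads). G418 A was lower than both untreated libraries, which averaged 259 ± 21.3 RPM (SD, n = 2). The log2 change was -0.41 over Untreated A (interval -0.52 to -0.30) and -0.57 over Untreated B (-0.67 to -0.48). Untreated B was above Untreated A by 0.17 (0.07 to 0.26), so the gap between G418 A and the nearer untreated library was larger than the gap between the untreated libraries. FDPS was the only one of the 5 genes for which this held. Against the untreated mean FDPS was 29.0% lower, and 2.76% of the 5684 transcripts had a lower log2 change.

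FDFT1 is squalene synthase, which joins farnesyl diphosphate into squalene and commits it to sterols. It gave 252 RPM in Untreated A (1478 reads), 294 RPM in Untreated B (2790 reads) and 224 RPM in G418 A (1618 reads). The G418 library was again the lowest, with an untreated mean of 273 ± 29.7 RPM (SD, n = 2). The log2 change was -0.17 over Untreated A (-0.27 to -0.07) and -0.39 over Untreated B (-0.48 to -0.30). The difference of 0.22 between the untreated libraries (0.13 to 0.31) was larger than the distance of G418 A from Untreated A.

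LSS, or lanosterol synthase, closes the rings of the sterol skeleton. Its CDS held 54.97 RPM in Untreated A (322 reads), 85.4 RPM in Untreated B (809 reads) and 59.5 RPM in G418 A (429 reads). G418 A lay between the untreated libraries, whose mean was 70.2 ± 21.5 RPM (SD, n = 2). The log2 change was 0.11 over Untreated A (-0.10 to 0.33), an interval that includes 0, and -0.52 over Untreated B (-0.69 to -0.35). The untreated libraries differed by 0.63 (0.45 to 0.83), more than either of them differed from G418 A. LSS was the only one of the 5 genes with a log2 difference of 0.5 or more of Untreated B over Untreated A, which 7.04% of transcripts had.

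DHCR7 reduces 7-dehydrocholesterol to cholesterol, the last step of one branch of the pathway. It gave 167 RPM in Untreated A (976 reads), 201 RPM in Untreated B (1903 reads) and 152 RPM in G418 A (1100 reads). G418 A was below both untreated libraries, which averaged 184 ± 24.1 RPM (SD, n = 2), and the log2 change was -0.13 over Untreated A (-0.25 to -0.0026). Over Untreated B it was -0.40 (-0.51 to -0.29), and the untreated libraries differed by 0.27 (0.16 to 0.38).

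INSIG1, the sterol-sensing anchor of SCAP, held 64.9 RPM in Untreated A (380 reads), 78.9 RPM in Untreated B (748 reads) and 56.4 RPM in G418 A (407 reads). G418 A was the lowest of the 3, with an untreated mean of 71.9 ± 9.93 RPM (SD, n = 2). The log2 change of -0.20 over Untreated A had an interval of -0.41 to 0.0036 that reached 0. The change over Untreated B was -0.48 (-0.66 to -0.31), and Untreated B was above Untreated A by 0.28 (0.10 to 0.46). A log2 change of -0.5 or less was reached over Untreated B alone by 2 of the 5 genes, FDPS and LSS, against 4.47% of transcripts. Over Untreated A alone it was reached by none of the 5 genes and by 2.57% of transcripts.

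**Figure D1:**
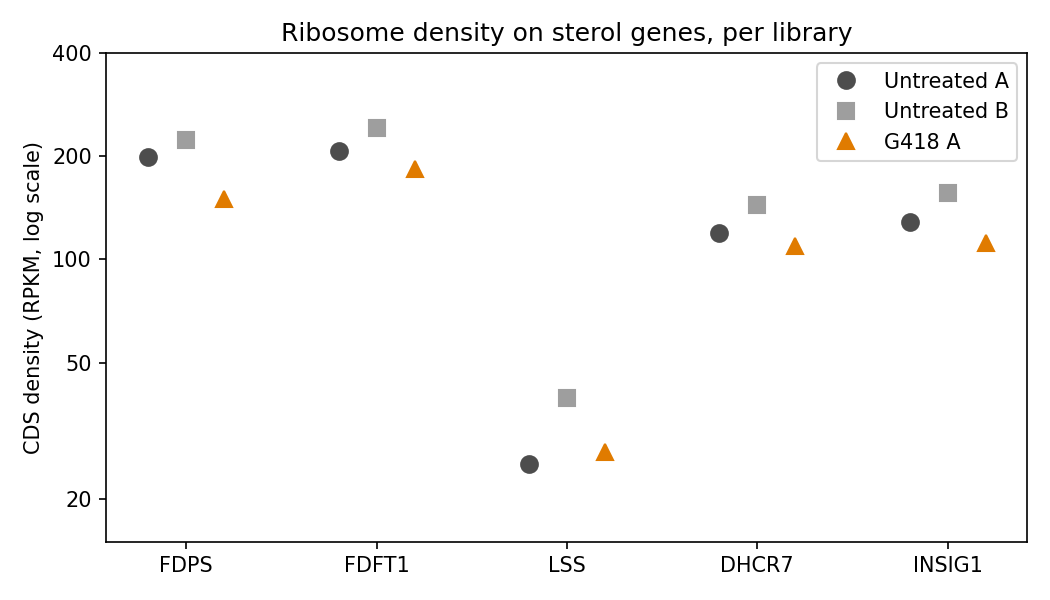
CDS density in RPKM (RPM per kilobase of CDS, log axis) of each sterol gene, with 1 point per library. G418 A is the lowest point for FDPS, FDFT1, DHCR7 and INSIG1 and lies between the untreated libraries for LSS.

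**Figure D2:**
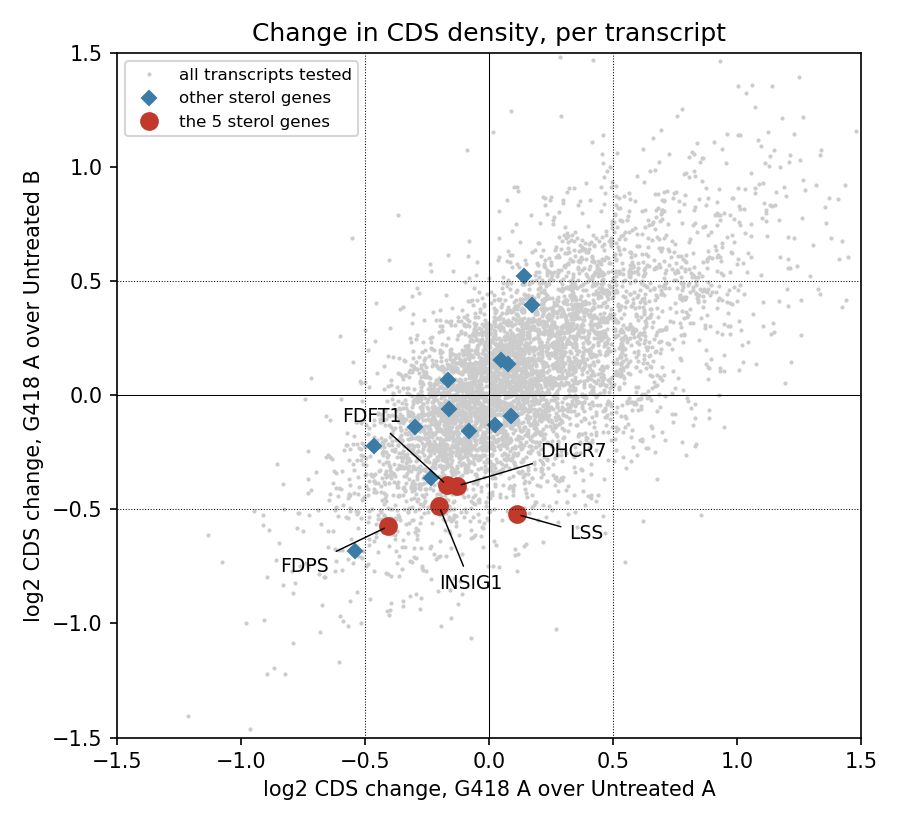
Log2 change of CDS density of G418 A over Untreated A (horizontal) and over Untreated B (vertical), with 1 point per transcript, the 5 sterol genes in red and 13 other sterol synthesis and uptake genes in blue. Dotted lines mark log2 changes of 0.5 and -0.5, and 18 transcripts lie outside the axes. The red points lie below 0 on the vertical axis, and all but LSS lie left of 0 on the horizontal axis, with FDPS farthest from 0 on both.

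Per length, FDFT1 and FDPS carried the most ribosomes of the 5. FDFT1 had a density of 207 RPKM (RPM per kilobase of CDS) in Untreated A, 241 RPKM in Untreated B and 184 RPKM in G418 A, and FDPS had 199, 223 and 149.9 RPKM in the same order. FDFT1 was above FDPS in each library, 1.06 times as dense by the untreated means and 1.23 times in G418 A. Their untreated ranges overlapped, and their order was not tested. INSIG1 (129, 157 and 112 RPKM) and DHCR7 (119, 144 and 109 RPKM) followed, with INSIG1 the higher in each library and untreated ranges that also overlapped. LSS had the lowest density, at 25.4 RPKM in Untreated A, 39.4 RPKM in Untreated B and 27.4 RPKM in G418 A. Its next neighbour DHCR7 was 4.07 times as dense by the untreated means and 3.98 times as dense in G418 A. Among the 8812 transcripts listed in all libraries, untreated density placed FDFT1 at the 93.1 percentile, FDPS at 92.7, INSIG1 at 89.0, DHCR7 at 87.9 and LSS at 63.3.

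The other genes of sterol synthesis and uptake gave values on both sides of 0. Of 24 such genes, 17 were listed in all libraries and 13 had the minimum of CDS reads. Their median log2 changes over Untreated A and Untreated B were -0.08 and -0.09. In G418 A 6 of the 13 lay below both untreated libraries, 4 above both and 3 between. Of all transcripts, 27.9% were below both and 46.3% above both. NSDHL is a sterol dehydrogenase of the demethylation steps after lanosterol. It was the only one of the 13 lower by 0.5 or more over both, at -0.54 and -0.68, against 1.23% of all transcripts.

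Of 13 genes that regulate SREBP, 9 had the minimum of CDS reads. None of the 9 was below both untreated libraries, against 27.9% of all transcripts, and 5 were above both, against 46.3%. SREBF2, which encodes SREBP-2, had log2 changes of 0.40 over Untreated A and -0.12 over Untreated B. SREBF1 had 0.20 and -0.39. SCAP, the escort of SREBP that INSIG1 retains, had 0.56 and 0.41, both higher in G418 A.

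The transcripts closest to the sterol genes in their pair of log2 changes were MCM5, KIF20A and GTPBP1, found among 2403 transcripts that averaged at least 500 CDS reads. The distance from the median pair of the sterol genes was 0.0235 for MCM5, 0.0384 for KIF20A and 0.0454 for GTPBP1 in log2 units, over 3 libraries. MCM5, a subunit of the replicative helicase, had 214 RPM in Untreated A, 270.2 RPM in Untreated B and 190.0 RPM in G418 A. Its log2 changes were -0.17 and -0.51.

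Readthrough was expressed as a ribosome readthrough score (RRTS), the ribosome density between the normal termination codon (NTC) and the next stop codon that shares its frame in the 3′UTR (3′TC), divided by the density of the CDS. Over the 5 genes together, Untreated A had 0 reads in this region, Untreated B 7 and G418 A 33. The pooled RRTS was 1.55% in Untreated B (interval 0.625 to 3.20) and 13.2% in G418 A (9.12 to 18.6), and the 0 reads of Untreated A allow up to 1.31%. By point values G418 A was therefore 8.52-fold above Untreated B and 17.0-fold above the untreated mean of 0.777% ± 1.10 (SD, n = 2). Its point value was 10.1-fold above the limit of 3 reads in Untreated A, a fold that leaves out the counting error of G418 A. All 5684 transcripts together gave 1.57% and 1.25% in the untreated libraries A and B and 21.3% in G418 A, 15.2-fold above the untreated mean. If each sterol gene had the pooled RRTS of the other transcripts with its stop signal, 43.8 reads would have been found in G418 A, 5.68 in Untreated B and 3.63 in Untreated A.

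In G418 A 4 of the 5 sterol genes had an RRTS above 0 (all but FDFT1), against 75.8% of transcripts. In Untreated B it was 2 of 5 (LSS and INSIG1), against 22.3%, and in Untreated A none of 5, against 24.0%. These shares depend on depth and on the length of the region, which ran from 18 nt in FDFT1 to 153 nt in DHCR7.

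FDPS, with the UGAC signal, had 0 readthrough reads in both untreated libraries and 11 in G418 A. Its RRTS in G418 A was 23.1% (11.5 to 41.4), while the untreated zeros allow up to 5.86% in Untreated A and 3.22% in Untreated B. Reads were thus found past the FDPS stop codon in the G418 library alone. FDPS has no in-frame stop codon in its annotated 3′UTR, so its region was the 3′UTR, deposited as 50 nt, of which 44 nt were counted. The 560 other transcripts with UGAC pooled to 38.7% in G418 A. Of them, 34.5% were lower than FDPS and 15.4% were at 0.

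FDFT1, with UGAU, had 0 readthrough reads in every library. Its next in-frame stop codon is so near that 12 nt remained to be counted, and the zero in G418 A allows up to 18.9%. The 375 other transcripts with UGAU pooled to 36.4% in G418 A, at which 5.79 reads would have been found on FDFT1, and 18.7% of them were at 0. The exact interval of FDFT1 in G418 A ended at 23.2%, below that pooled value.

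LSS, with UGAG, had 0, 6 and 4 readthrough reads in Untreated A, Untreated B and G418 A. Untreated B gave an RRTS of 12.2% (4.47 to 26.5) and G418 A one of 15.3% (4.17 to 39.2). The intervals overlap over most of their length, and the zero of Untreated A allows up to 15.3%, so no difference of G418 A from the untreated libraries was detectable on LSS at this depth. The 1053 other transcripts with UGAG pooled to 1.15% and 1.09% in the untreated libraries A and B and to 22.8% in G418 A. In Untreated B 94.8% of them had a lower RRTS than LSS, and 78.7% of them were at 0.

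DHCR7, with UAAG, had 0 readthrough reads in both untreated libraries and 10 in G418 A. Its RRTS of 8.63% in G418 A (4.14 to 15.9) was above the 2.92% and 1.5% that the zeros of Untreated A and Untreated B allow. It had the longest region of the 5 genes and so the tightest limits. The 411 other transcripts with UAAG pooled to 8.56% in G418 A, at which 9.92 reads would have been found on DHCR7.

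INSIG1 has the same UAAG signal and had 0, 1 and 8 readthrough reads in Untreated A, Untreated B and G418 A. Its RRTS in Untreated B was 1.25% (0.0316 to 6.95), its RRTS in G418 A was 18.3% (7.92 to 36.1), and the zero of Untreated A allows up to 7.37%. The INSIG1 interval in G418 A lay above that of Untreated B, and it overlapped the exact interval of the zero in Untreated A, which ends at 9.06%. The other UAAG transcripts pooled to 8.55% in G418 A, near the lower end of the INSIG1 interval and inside it. At that RRTS 3.73 reads would have been found on INSIG1, and 76.6% of the class was lower than INSIG1, with 37.0% of it at 0. The intervals of INSIG1 and DHCR7 in G418 A overlap, from 7.92 to 15.9%, so these genes with a shared stop signal were not separated. The INSIG1 values are for the transcript of 178 codons, while 5 INSIG1 transcripts have an annotated CDS. How far reads of the other transcripts enter these values was not tested.

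**Figure D3:**
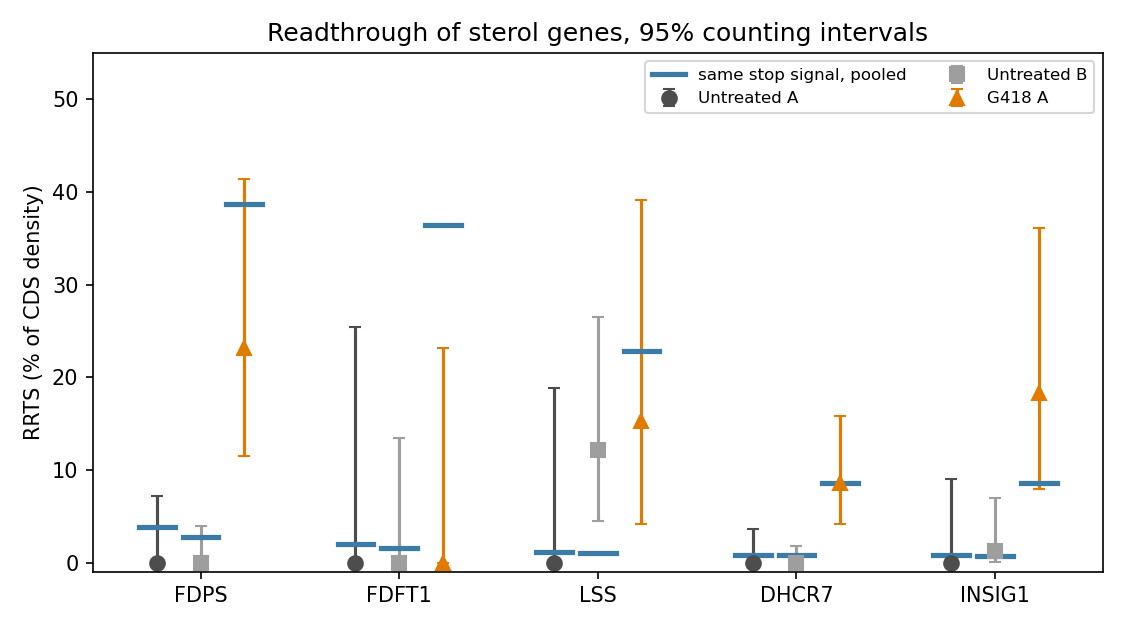
RRTS in percent of CDS density for each sterol gene and library, with exact Poisson 95% intervals of the readthrough reads as bars, beside the pooled RRTS of all transcripts with the same stop signal in that library (blue lines). G418 A is above 0 for all genes but FDFT1, and for LSS the interval of G418 A overlaps that of Untreated B.

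Ribosomes beyond the 3′TC were counted for the 4 genes that have a 3′TC, all but FDPS. FDFT1 had 6, 0 and 36 reads there in Untreated A, Untreated B and G418 A, over 671 nt. In G418 A this was 4.05% of its CDS density (2.84 to 5.61), although no read lay between its NTC and 3′TC. FDFT1 was at the 83.8 percentile of 5436 transcripts in G418 A, at 87.6 in Untreated A and at 0 in Untreated B, where it had 0 reads. Its rank without G418 was thus high in Untreated A, on 6 reads, and not in Untreated B. These transcripts pooled to 0.856% in G418 A, and to 0.178% and 0.158% in the untreated libraries A and B. DHCR7 had 0, 7 and 17 reads in Untreated A, Untreated B and G418 A over 808 nt, and its density in G418 A was 2.67% of the CDS (1.55 to 4.27). INSIG1 had 0, 6 and 8 reads over 1815 nt, where 0.546% in G418 A (0.236 to 1.08) and 0.223% in Untreated B (0.0817 to 0.485) had overlapping intervals. LSS had no read past its 3′TC in any library, over 581 nt. The reads on FDFT1 and DHCR7 in G418 A thus exceeded both untreated libraries beyond counting error, and those on INSIG1 did not.

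**Figure D4:**
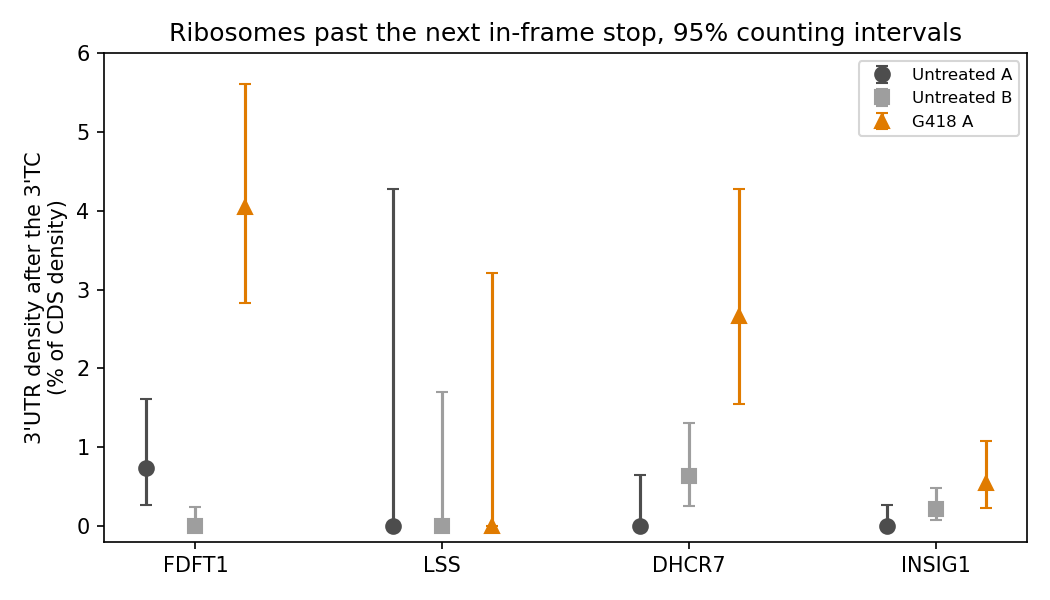
Ribosome density in the 3′UTR past the 3′TC, in percent of CDS density, for the 4 sterol genes that have a 3′TC, with exact Poisson 95% intervals as bars. The G418 A points of FDFT1 and DHCR7 are above both untreated points and outside their intervals, while LSS is at 0 in all 3 libraries.

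Reads upstream of the start codon were few on 4 of the 5 genes in G418 A. DHCR7 carried the most, with 26, 46 and 16 reads in its 5′UTR in Untreated A, Untreated B and G418 A. As a share of its CDS density the untreated libraries A and B had 18% (11.8 to 26.4) and 16.4% (12 to 21.8), and G418 A had 9.85% (5.63 to 16.0). The point value was lower in G418 A than in both, with intervals that overlap. All 5684 transcripts pooled to 11.3% and 12.1% in the untreated libraries and to 10.2% in G418 A, where their value was also the lowest. FDFT1 had 1, 24 and 0 reads in its 5′UTR in the same order, so the untreated libraries differed from each other more than G418 A differed from Untreated A. FDPS had 6, 3 and 1 reads, LSS 4, 0 and 0, and INSIG1 none in any library.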

How the data were processed

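RPFs were sequenced from 3 libraries of HEK293T cells, grouped by the treatment label. According to the study's methods, the authors collapsed duplicate reads by molecular identifier, discarded reads from noncoding RNA, aligned the rest to hg38 with STAR under GENCODE annotation, keeping 1 alignment per read, and assigned fragments of 28 to 35 nt to a single transcript per gene with the 3′-most stop codon. The authors deposited RPM values per region, whole-number counts of reads, RPKM densities and the RRTS as a ratio of RPKM densities. The first 18 nt and last 15 nt of the CDS and the first 6 nt after the stop codon were left out by the authors. Lengths in the tables bore this out, as the deposited CDS was 33 nt shorter than in GENCODE release 44 for 99.9% of transcripts of the same version. The tables' FDPS transcript has an older version than that reference. Its 3′UTR was deposited as 50 nt and is 56 nt in the reference, and whether the 6 nt left out account for this was not tested. Lengths past the 3′TC were computed as if deposited 3′UTR lengths lack these 6 nt. Over the 50 nt, in place of the 44 nt counted, the FDPS density in G418 A was 20.3% of its CDS density.

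All deposited RPM values (100%) were whole multiples of what a single read is worth, so reads were recovered by division. The study describes replicate libraries of a treatment as biological replicates, and the labels do not say whether these untreated libraries came from separate cultures. Log2 changes are ratios of RPM without a pseudocount, with exact conditional binomial (Clopper-Pearson) 95% intervals. RRTS intervals are exact Poisson intervals, and where no read was found the limit is that of 3 reads. Pooled RRTS is the sum of readthrough reads over the sum of reads at CDS density. Transcripts entered where CDS reads averaged 128 or more over the libraries. The design named no test, and edgeR 4.0.16 and DESeq2 1.42.0 in R 4.3.3 were used for scaling factors alone. Other steps used Python 3.11.15, SciPy 1.17.1, pandas 2.3.3 and NumPy 2.4.6, and the steps were tested on simulated data.

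Named were all listed sterol genes, list genes with a log2 change of 0.5 or more in 1 direction over both untreated libraries (at most 8 by size a list), SREBF1, SREBF2 and SCAP, and the 3 transcripts nearest in their changes. Some genes this rule names are not reported here. The sterol genes, lists and thresholds were chosen with earlier results of these data known. Alternatives were other scalings, deposited counts or RPKM, a pseudocount of 1 RPM, other read minimums, the whole 3′UTR, and leaving out a library or the gene with most readthrough reads.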

Additional observations from a re-analysis of the deposited data

How the results depend on the processing

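Of 72 alternative values, 60 stayed within a limit that differed by kind of value. The limit was the SD between the untreated libraries for log2 changes and the counting interval for the pooled RRTS. For counts and folds it was equality or a fixed ratio. With untreated libraries this close, leaving out either could not move a single gene's log2 change past that SD. The 60 are therefore no measure of robustness. The sterol genes' log2 changes over the untreated mean were below 0 in 34 of 35 alternatives, the exception being LSS without Untreated B (0.11). Their median of -0.29 was -0.35 with TMM scaling and -0.36 with median-of-ratios scaling, and it ranged from -0.48 to -0.17 when either untreated library was left out. The number of sterol genes lower by 0.5 or more was 0 with both untreated libraries and 0 to 2 when either was left out (2, FDPS and LSS, without Untreated A). The median of the 13 other sterol synthesis and uptake genes was -0.06 as reported over the untreated mean, -0.12 with TMM scaling, -0.13 with median-of-ratios scaling, -0.048 with a minimum of 20 CDS reads and -0.11 with a minimum of 500, and it ranged from -0.089 to -0.080 when an untreated library was left out. The pooled RRTS of the sterol genes in G418 A was 2.80% over the whole 3′UTR in place of 13.2%. Its fold over the untreated mean was 10.6 over the whole 3′UTR, 11.1 without FDPS and 8.52 without Untreated A. Without Untreated B the fold was 10.1, with Untreated A taken at its limit of 3 reads. The median of the deposited RRTS gave no fold, since the untreated median was 0. RPKM is RPM over a fixed length, so that alternative could not differ. No paired analysis was possible because the G418 group has 1 library. FDFT1, LSS and INSIG1 rest on at most 8 readthrough reads per library, FDFT1 with 12 nt counted.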

Other observations

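Genes of neighbouring pathways are described by counts among genes with the same minimum of CDS reads, with no test of a difference from the sterol genes. Of 11 fatty acid synthesis genes driven by SREBP-1, 6 were below both untreated libraries, with a median log2 change of -0.15 over Untreated A and -0.27 over Untreated B, and none was 0.5 or more higher or lower over both. FASN, the fatty acid synthase, named here after its values were seen, had 643 RPM in Untreated A, 959 RPM in Untreated B and 525 RPM in G418 A. Like the 5 sterol genes of the set it was higher in Untreated B than in Untreated A. The 13 other sterol synthesis and uptake genes had a median log2 difference of -0.10 of Untreated B over Untreated A.

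The isoprenoid branch uses farnesyl diphosphate for prenylation, dolichol and ubiquinone. Its genes NUS1, RCE1 and PDSS2 had log2 changes past 0.5 over both untreated libraries, as 6.32% of all transcripts had. RCE1 and PDSS2 reached the minimum of CDS reads only through G418 A, where they were high, so no count is given for this branch. RCE1, a protease that trims prenylated proteins, had log2 changes of 1.18 and 1.21. NUS1, a subunit of the enzyme that makes dolichol chains, had 0.64 and 0.65, and PDSS2, which builds the ubiquinone tail, had 0.57 and 0.86. These 3 had few reads, from 84 on RCE1 in Untreated A to 290 on NUS1 in G418 A. Of 3 efflux and esterification genes none passed 0.5 over both in either direction, against 6.32% of all transcripts higher and 1.23% lower. The medians of the 3 were -0.18 and -0.06. Below both untreated libraries were 2 of the 3, against 27.9% of all transcripts.

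Of 13 genes of endoplasmic reticulum stress, 13 were above both untreated libraries, against 46.3% of all transcripts, and 9 passed 0.5 over both, against 6.32%, with medians of 0.58 and 0.71. HERPUD1 had 1.35 and 1.79, and MANF 1.12 and 1.16. This list was chosen because it had moved in the same libraries, so its count is no independent evidence.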
